A study of Mus musculus with 10 samples.

Results

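Immediate early genes of the AP-1 and EGR type were followed in the left ventricle (LV) of young mice under chronic pressure overload. The 10 genes were Fos, Fosb, Fosl2, Jun, Junb, Egr1, Atf3, Ier2, Nr4a1 and Myc, taken by gene name from tables that each held 55401 genes. Each name matched 1 gene. The 5 nAAC mice had undergone neonatal ascending aorta constriction, an operation that narrows the aorta just above the heart, and the 5 sham mice had a sham operation at the same age. The mice were wild-type (WT), of C57BL/6 background and born to AHR heterozygous parents, and they stayed with their mothers after surgery. Whole LV tissue was taken at 4 weeks of age and 1 library was sequenced per mouse, so the values describe a late stage of a load that began after birth. The sex of each mouse is not in the labels, and both sexes were used.

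Immediate early genes are transcribed within minutes of a stimulus, from factors already present in the cell and without new protein synthesis. FOS and JUN proteins pair through leucine zippers to form AP-1, which binds DNA at sites close to the cyclic AMP response element, and EGR1 binds GC-rich sites through zinc fingers. Stretch, pressure and growth factors raise them briefly in heart muscle and in fibroblasts. Excision, warming and delay before freezing can raise them as well, so the spread between libraries is given for every gene. Expression is given as FPKM, a fragment count scaled to transcript length and library size, which allows levels of genes of unequal length to be compared within a library.

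Values were higher in nAAC LV for all 10 genes, by 1.52 to 4.53 times in the group means. Of the 10 genes, 4 were up-regulated as DEGs, the genes with an adjusted p below 0.05 and a log2 FC above 1 in limma. These were Atf3, Junb, Egr1 and Nr4a1. Over the 11867 genes tested, 5.01% were DEGs in this direction and 0.893% in the other, which none of the 10 took. An adjusted p below 0.05 alone was reached by Jun, Myc, Fosl2 and Ier2 as well, which made 8 of 10, against 27.1% of the genes tested. Fos and Fosb had a mean FPKM below 1, the limit for the test. Atf3 and Myc passed that limit through their nAAC values, since their sham means were below 1. In 7 of 10 genes the lowest nAAC library lay above the highest sham library, against 18.9% of the genes tested. The reverse held for none of the 10 and for 3.46% of the genes tested. The median log2 FC of the 8 genes was 0.99 and that of all genes tested was 0.22. In bulk tissue, a higher level per cell and a larger number of expressing cells cannot be told apart.

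**Figure D1:**
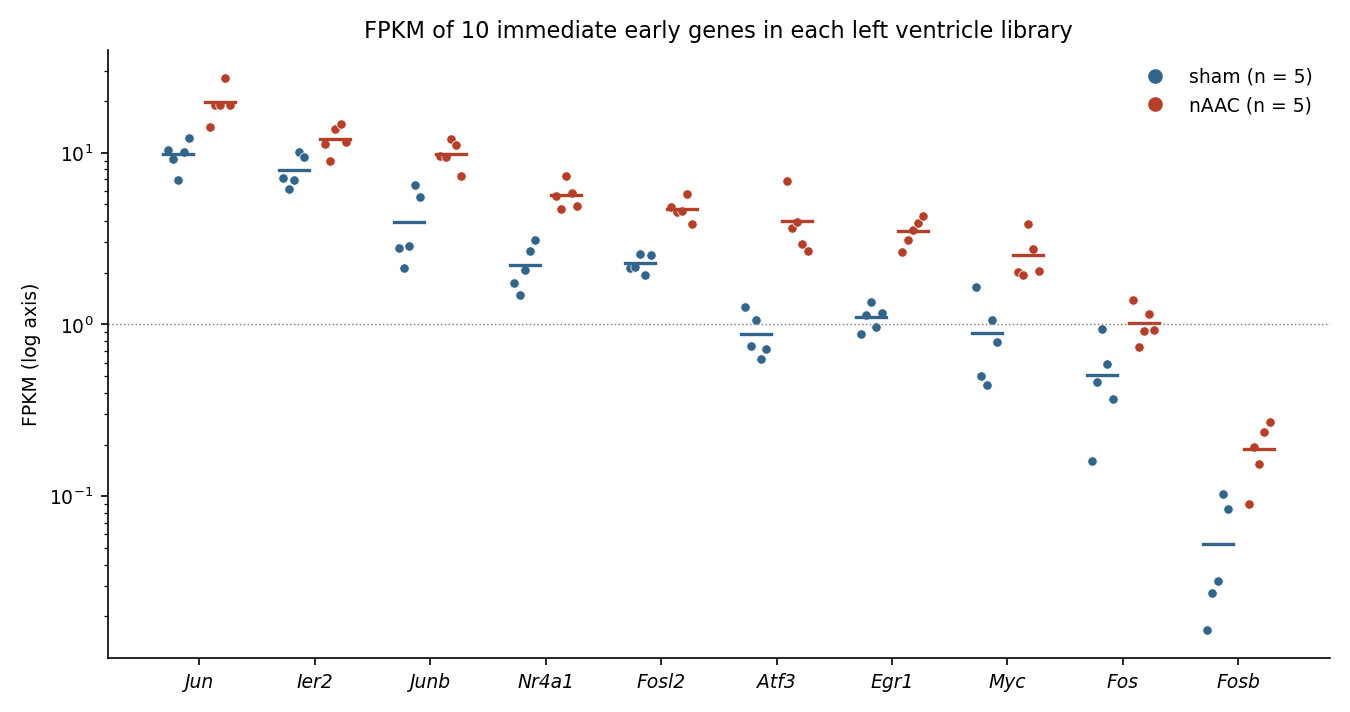
FPKM of the 10 genes on a log axis in each library, with sham mice in blue, nAAC mice in red, horizontal lines for group means and a dotted line at 1 FPKM. The groups do not overlap for Jun, Junb, Nr4a1, Fosl2, Atf3, Egr1 and Myc, while Ier2, Fos and Fosb overlap.

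The upstream sequences of 4 of these genes are shown, after a search for short response elements of the kind known from immediate early genes. RefSeq promoters on GRCm38.p6 were found for 7 of the 10 genes. The 250 bases before the start are printed 5′ to 3′ on the strand of the gene. This was done for the 4 whose window holds no annotated exon of the same gene. Exons of other genes were not checked. Capitals mark matches to motifs on either strand.
Fos, chr12:85473640-85473889, plus strand: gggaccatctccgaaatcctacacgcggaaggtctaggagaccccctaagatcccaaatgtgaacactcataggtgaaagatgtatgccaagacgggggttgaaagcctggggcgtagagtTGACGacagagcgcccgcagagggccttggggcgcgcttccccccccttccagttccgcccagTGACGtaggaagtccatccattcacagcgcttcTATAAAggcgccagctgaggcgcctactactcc
Jun, chr4:95052223-95052472, minus strand: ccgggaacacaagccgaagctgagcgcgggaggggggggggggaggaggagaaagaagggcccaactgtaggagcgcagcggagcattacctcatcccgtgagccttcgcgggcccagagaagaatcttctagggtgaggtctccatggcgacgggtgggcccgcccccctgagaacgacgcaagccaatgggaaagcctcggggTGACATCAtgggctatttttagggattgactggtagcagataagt
Junb, chr8:84978749-84978998, minus strand: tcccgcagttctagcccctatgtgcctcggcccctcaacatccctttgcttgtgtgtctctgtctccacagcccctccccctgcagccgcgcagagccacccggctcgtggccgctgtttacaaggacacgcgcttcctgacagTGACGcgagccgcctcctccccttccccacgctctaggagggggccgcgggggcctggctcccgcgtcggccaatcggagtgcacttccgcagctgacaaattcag
Nr4a1, chr15:101266596-101266845, plus strand: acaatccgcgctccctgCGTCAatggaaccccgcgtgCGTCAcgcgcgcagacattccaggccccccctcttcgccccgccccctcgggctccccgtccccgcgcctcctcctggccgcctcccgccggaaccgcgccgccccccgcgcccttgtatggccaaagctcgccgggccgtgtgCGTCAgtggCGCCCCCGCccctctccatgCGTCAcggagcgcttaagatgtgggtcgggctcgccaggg
The core of the cyclic AMP response element, TGACG, occurred in the windows of Fos, Junb, Nr4a1, Atf3 and Fosb, which are 5 of 7, and in 17.8% of 32851 promoters. The Fos window held it at positions -129 to -125 and -66 to -62, counted back from the start, with a TATA box, TATAAA, at -33 to -28. The Nr4a1 window held 4 such cores, at -233 to -229, -213 to -209, -69 to -65 and -40 to -36, all on the opposite strand. It also held an EGR site, GCGNGGGCG, at -60 to -52. The Fosb and Fosl2 windows each held an EGR site too, which made 3 of 7 against 4.70% of all promoters. The Jun window held the octamer TGACATCA at -45 to -38, a motif looked for after the sequence had been seen, which occurred in 2.93% of promoters. No window held the palindrome TGACGTCA, the AP-1 site TGANTCA or a CArG box, the site of serum response factor. These letters occurred in 1.55%, 6.75% and 1.47% of promoters, and the windows are short beside the whole regulatory region of each gene.

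Among the FOS members, Fosl2 was the most abundant and the only one above 1 FPKM on average in sham LV. Fosl2 (chr5:32135801-32157842, plus strand) encodes FRA-2, an AP-1 subunit that lacks the strong activation domain of FOS. Its FPKM was 4.82, 4.51, 4.60, 5.74 and 3.85 in nAAC mice 1 to 5 and 2.13, 2.16, 2.58, 1.94 and 2.54 in sham mice 1 to 5. The lowest nAAC value was above the highest sham value by more than 1 FPKM. The means were 4.70 ± 0.685 and 2.27 ± 0.281 (SD, n = 5 each), a ratio of 2.07. In limma the log2 FC was 0.80 (SE 0.11) at an adjusted p of 0.00018, under the fold limit for a DEG.

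Fos (chr12:85473890-85477273, plus strand), the founding member of the family, stood at a low level in both groups. Its FPKM was 1.39, 0.744, 0.915, 1.15 and 0.927 in the nAAC libraries and 0.160, 0.464, 0.944, 0.586 and 0.369 in the sham libraries. Sham mouse 3 was above nAAC mice 2, 3 and 5, and only nAAC mice 1 and 4 were above every sham value. The means were 1.02 ± 0.249 and 0.505 ± 0.291 (SD, n = 5 each), a ratio of 2.03, with p = 0.0317 in a two-sided exact permutation test of log2(FPKM + 1). Without the limit on low values limma gave Fos a log2 FC of 0.44 (SE 0.14) at an adjusted p of 0.0706.

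Fosb (chr7:19302696-19310051, minus strand), a FOS relative known for a stable short splice form, was close to the floor of these libraries. Its FPKM was 0.0895, 0.194, 0.154, 0.235 and 0.269 in nAAC mice and 0.0166, 0.0273, 0.0320, 0.103 and 0.0843 in sham mice. In 4 of 5 nAAC libraries it was above every sham library, and nAAC mouse 1 fell among sham values. The means were 0.188 ± 0.0701 and 0.0526 ± 0.0383 (SD, n = 5 each; exact permutation p = 0.0159). The mean coverage per base of Fosb was at most 0.838 reads in any library, so its ratio of 3.58 rests on few reads. Without the limit on low values its log2 FC was 0.17 (SE 0.04) in limma at an adjusted p of 0.0229, a value held down by the 1 added to each FPKM. In that wider test, 11.6% of 29309 genes were higher at an adjusted p below 0.05 and 2.02% were DEGs upward.

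Jun and Junb encode the JUN partners of AP-1, of which JUN is the stronger activator and JUNB is often induced with it. Jun (chr4:95049034-95052222, minus strand, 1 exon) had the highest FPKM of the 10 genes in both groups. It was at 14.2, 18.9, 18.9, 27.3 and 18.9 FPKM in nAAC mice and at 10.4, 9.19, 6.97, 10.04 and 12.2 FPKM in sham mice. The groups did not overlap, and nAAC mouse 1 was closest to sham. The means were 19.6 ± 4.73 and 9.77 ± 1.92 (SD, n = 5 each). Limma put the log2 FC of Jun at 0.93 (SE 0.17) with an adjusted p of 0.0013. The antisense gene Junos overlaps Jun, and whether strand was used in counting is not given in the sources used here, so reads of the pair cannot be told apart. Junos was listed at no more than 0.755 FPKM in any library.

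Junb (chr8:84976910-84978718, minus strand) was a DEG with a wide spread in sham LV. Its FPKM was 9.55, 9.38, 12.0, 11.1 and 7.31 in nAAC mice and 2.79, 2.14, 2.88, 6.51 and 5.54 in sham mice. Sham mice 4 and 5 stood well above the other 3 sham mice, and the gap between the highest sham and the lowest nAAC library was under 1 FPKM. The means were 9.87 ± 1.80 and 3.97 ± 1.92 (SD, n = 5 each), a ratio of 2.48, and limma gave a log2 FC of 1.20 (SE 0.23) at an adjusted p of 0.0016. The residual spread of Junb was 1.93 times the value that limma's trend gives for its level, at the 90.5 percentile of all genes tested. Its log2 FC was 1.37 without sham mouse 4. It was below the fold limit with median-ratio scaling (0.96), with upper-quartile scaling (0.98), with Xist as a covariate (0.90, adjusted p = 0.0246) and with length and GC trends removed (0.73).

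Atf3 (chr1:191170296-191218039, minus strand) encodes a stress-induced factor of the ATF family that pairs with JUN proteins and often represses. It showed the largest log2 FC and ratio of the 10 genes. Its FPKM was 6.82, 3.65, 3.93, 2.93 and 2.68 in nAAC mice and 1.26, 0.744, 1.06, 0.632 and 0.720 in sham mice. Every nAAC library was above every sham library, and nAAC mouse 1 was far above the other 4. The means were 4.00 ± 1.65 and 0.882 ± 0.265 (SD, n = 5 each), a ratio of 4.53. In limma the log2 FC was 1.37 (SE 0.19) at an adjusted p of 0.00013, and 1.19 at an adjusted p of 6.75e-05 without nAAC mouse 1.

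Egr1, on chromosome 18, encodes a zinc finger factor that activates growth and matrix genes and is held back by the corepressors NAB1 and NAB2. Its FPKM was 2.66, 3.10, 3.56, 3.90 and 4.27 in nAAC mice and 0.882, 1.13, 1.35, 0.972 and 1.16 in sham mice. The spread within each group was small beside the gap between them, and no nAAC value came near the highest sham value. The means were 3.50 ± 0.636 and 1.10 ± 0.183 (SD, n = 5 each), a ratio of 3.18. Limma gave a log2 FC of 1.09 (SE 0.12) at an adjusted p of 2.35e-05, the smallest adjusted p among the 8 genes tested.

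Nr4a1 (chr15:101254269-101274795, plus strand) encodes the orphan nuclear receptor NUR77. Its FPKM was 5.61, 4.68, 7.32, 5.80 and 4.92 in nAAC mice and 1.75, 1.49, 2.08, 2.66 and 3.12 in sham mice, with no overlap. The means were 5.67 ± 1.04 and 2.22 ± 0.667 (SD, n = 5 each), and limma gave a log2 FC of 1.06 (SE 0.15) at an adjusted p of 0.00022. This log2 FC sat close to the fold limit, since it was 0.98 without nAAC mouse 3 and 0.97 without sham mouse 2.

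Myc (chr15:61985391-61990374, plus strand), which encodes a growth-promoting factor that binds DNA with MAX, spread widely in both groups. Its FPKM was 2.02, 1.94, 3.85, 2.75 and 2.04 in nAAC mice and 1.65, 0.501, 0.441, 1.07 and 0.795 in sham mice. The groups did not overlap, although sham mouse 1 came close to the 3 lowest nAAC mice. The means were 2.52 ± 0.812 and 0.891 ± 0.492 (SD, n = 5 each), and limma gave a log2 FC of 0.91 (SE 0.19) at an adjusted p of 0.0027.

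Ier2 (chr8:84661331-84662854, minus strand), a short single-exon gene whose product is a nuclear protein of the early response, changed least. Its FPKM was 11.2, 8.97, 13.8, 14.7 and 11.6 in nAAC mice and 7.13, 6.12, 6.91, 10.1 and 9.47 in sham mice. The groups overlapped, because nAAC mouse 2 was below sham mice 4 and 5. The means were 12.1 ± 2.27 and 7.95 ± 1.74 (SD, n = 5 each), a ratio of 1.52, and limma gave a log2 FC of 0.55 (SE 0.16) at an adjusted p of 0.0195. That call was lost without nAAC mouse 4 (log2 FC 0.48, adjusted p = 0.0551) and also with median-ratio or upper-quartile scaling, with Xist as a covariate and with length and GC trends removed. Ier2 and Junb are 314055 bases apart on chromosome 8.

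In two-sided exact permutation tests of 5 against 5 libraries, p was 0.0079, the smallest such a test can give, for Fosl2, Jun, Junb, Egr1, Atf3, Nr4a1 and Myc, and 0.0238 for Ier2. The order of the levels was similar in both groups but not identical. In nAAC LV it ran from Jun through Ier2, Junb, Nr4a1, Fosl2, Atf3, Egr1 and Myc to Fos and Fosb. Neighbours overlapped in range at each step of that order down to Myc, while Myc and Fos, and Fos and Fosb, did not overlap. In sham LV, Jun, Ier2, Junb, Fosl2 and Nr4a1 formed the upper group, and every Nr4a1 value was above every Egr1 value. Atf3 came eighth in sham LV, after Egr1 and Myc, and sixth in nAAC LV, ahead of Egr1 and Myc, although these 3 overlapped in range in both groups.

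Fos, Fosb, Fosl2, Jun, Junb, Egr1 and Nr4a1 belong to families of related DNA-binding factors, and the make-up of the FOS, JUN, EGR and NR4A families was compared as the share of each member in the summed FPKM of a library. Such shares do not change when a library is rescaled. In the FOS family, Fosl2 made up 79.0% ± 2.86 in nAAC LV and 79.3% ± 7.10 in sham LV (SD, n = 5 each), while the family total was 5.95 ± 0.812 and 2.89 ± 0.494 FPKM. In the JUN family, most of the RNA came from Jund, with Jun at 17.1% ± 3.21 and 18.1% ± 3.62 and Junb at 8.63% ± 1.21 and 6.94% ± 1.92. The total of the JUN family was 114.9 ± 19.4 FPKM in nAAC LV and 56.4 ± 18.6 FPKM in sham LV. In the NR4A family, Nr4a1 held 76.7% ± 2.62 and 77.4% ± 4.87. None of these shares of Fosl2, Jun, Junb or Nr4a1 differed beyond the spread between mice (exact permutation p between 0.151 and 0.952).

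The EGR family was the exception. Egr1 made up 38.6%, 52.2%, 56.0%, 57.9% and 61.0% of the family in nAAC mice 1 to 5 and 92.7%, 84.4%, 87.5%, 75.5% and 90.6% in sham mice 1 to 5. The groups did not overlap, and the mean share fell from 86.2% ± 6.72 to 53.1% ± 8.73 (SD, n = 5 each; exact permutation p = 0.0079, 13 shares compared). This occurred although Egr1 itself was up-regulated. Egr3, a related zinc finger factor, was at 1.92 ± 0.218 FPKM in nAAC LV and 0.121 ± 0.0666 FPKM in sham LV, and its share was 29.1% against 9.38%. Egr2, a factor also known for its part in myelination, was at 1.98, 0.945, 1.12, 0.868 and 0.952 FPKM in nAAC mice and between 0.0108 and 0.0965 FPKM in sham mice, and its share was 17.7% against 4.47%. Egr3 was a DEG (log2 FC 1.38, SE 0.10, adjusted p in limma 6.57e-07), although it reached the limit for the test only through its nAAC values. Its groups did not overlap either (exact permutation p = 0.0079). Egr2 was below that limit, with no overlap of the groups (exact permutation p = 0.0079). Egr4 was listed at 0 in every library. The total of the EGR family was 6.59 ± 0.432 FPKM in nAAC LV and 1.28 ± 0.214 FPKM in sham LV (SD, n = 5 each). Egr2 and Egr3 were close to the floor in sham LV, so the sham make-up of the family rests on low values. These share tests were added after the shares had been seen.

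**Figure D2:**
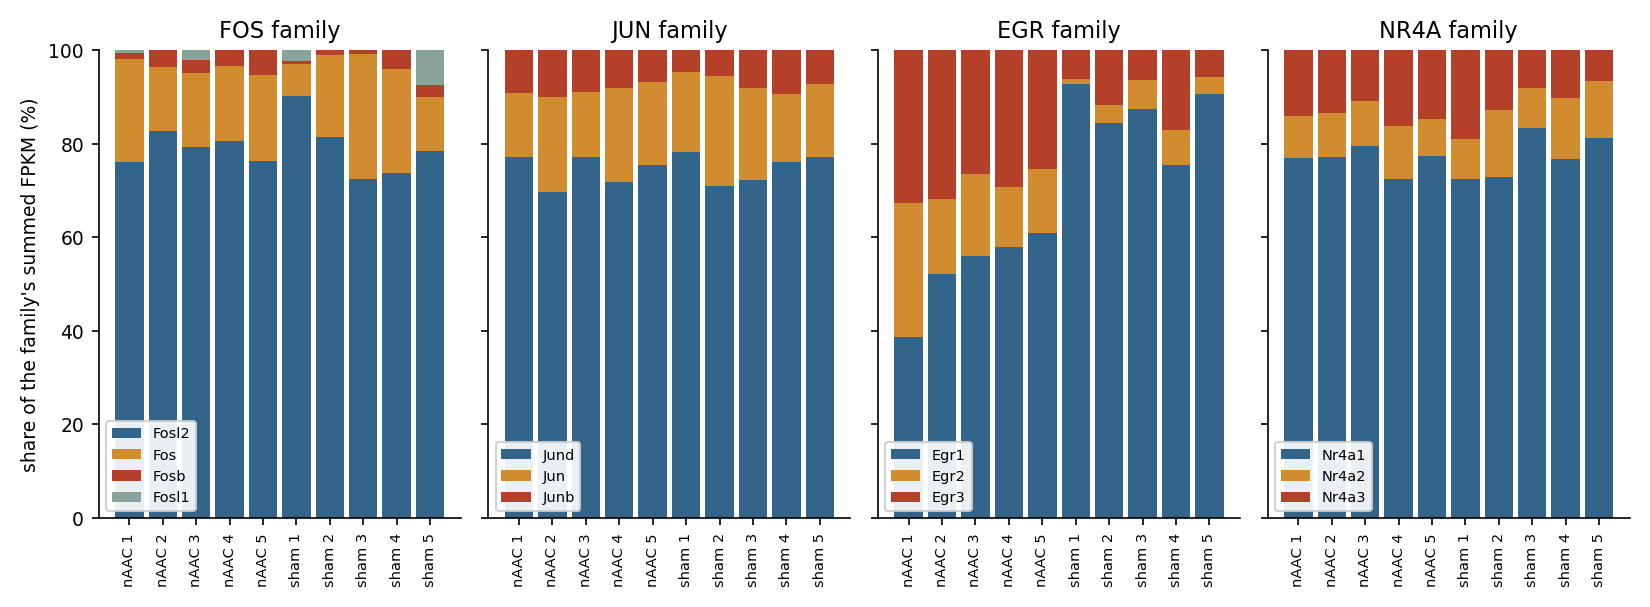
Share of each member in the summed FPKM of the FOS, JUN, EGR and NR4A families, as stacked bars in percent for each nAAC and sham library. Egr1 lies between 38.6% and 61.0% in nAAC libraries and between 75.5% and 92.7% in sham libraries, while Fosl2, Jund and Nr4a1 keep like shares in both groups.

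It was next asked whether the genes were high or low together in single libraries. Deviations were taken from each group's own mean, so a shift shared by a whole group cannot be seen in them. The mean deviation of the 8 tested genes from their group mean, on the log2(FPKM + 1) scale, ran from -0.14 to 0.16 among nAAC mice and from -0.21 to 0.18 among sham mice. The log2 FCs of the single genes between groups were 0.55 to 1.37, a measure unlike a mean over 8 genes. In nAAC mouse 2, all 8 genes were below the group mean, and in nAAC mouse 4, 7 of 8 were above it. In nAAC mouse 1 the genes went apart, since Atf3 deviated by 0.70 and Jun by -0.41. Sham mice 4 and 5 had the highest mean deviations of the sham group, of 0.13 and 0.18, with Junb at 0.68 and 0.48.

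**Figure D3:**
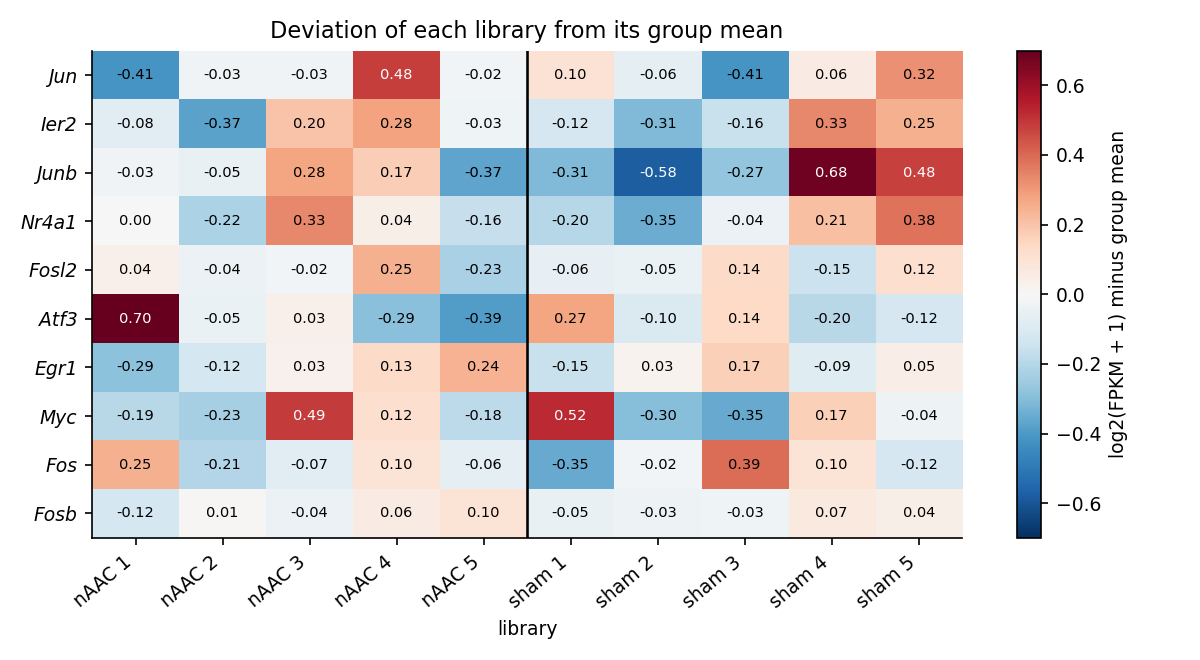
Deviation of each library from its group mean in log2(FPKM + 1), with genes in rows and the 10 libraries in columns, red for above and blue for below the mean. The largest deviations are those of Atf3 in nAAC mouse 1 (0.70) and Junb in sham mouse 4 (0.68), and no library is far above or below in every gene.

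Over the 28 pairs of tested genes, the correlation of these deviations across 10 libraries had a median of 0.20 and ran from -0.74 to 0.87, with 20 pairs above 0. Atf3 and Egr1 formed the most negative pair. Junb, Nr4a1 and Ier2 tended to be high and low together. The values were 0.87 for Junb with Nr4a1, 0.84 for Ier2 with Nr4a1 and 0.81 for Ier2 with Junb. These correlations share libraries and depth, and they are given as a description. The residual spread was above limma's trend for 6 of the 8 genes, with a median percentile of 66.9, and Fosl2 and Egr1 were the 2 below it, at 0.69 and 0.80 times the trend. The genes most like the mean profile of the 8, by Pearson correlation of deviations over 10 libraries, were Ltbr, Chst12, Lrp10, Hdac10, Aldh7a1 and Ddx24, with values between 0.93 and 0.96. They were picked as the 6 highest values over all other genes tested, so their height is in part a result of that choice. The likeness concerns deviations within groups only. Their log2 FCs between groups ran from 0.03 for Ddx24 to 0.77 for Chst12.

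How many genes passed the fold limit changed with the scaling of the libraries. With median-ratio scaling, which sets the median log2 FC of all genes to 0.00, the log2 FC of the 8 genes had a median of 0.80 and ran from 0.30 for Ier2 to 1.19 for Atf3. Then 7 of the 8 kept an adjusted p below 0.05, against 13.2% of the genes tested, and only Atf3 was a DEG, against 3.13%. The groups did not overlap in 5 genes, namely Fosl2, Jun, Egr1, Atf3 and Nr4a1, while those of Junb and Myc came to overlap. The share of all genes without overlap in this scaling was not computed, so no comparison is drawn from that count. With the trends of transcript length and GC content removed, the median was 0.60, 7 passed against 14.2%, and Atf3 was again the DEG, against 2.67%. The longest transcripts of the 10 genes had a median of 2445.5 bases and 55.8% GC, against 3159 bases and 49.8% over the genes tested. Fosl2, Egr1, Fosb and Jun were longer than that median of all genes and the other 6 were shorter.

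**Figure D4:**
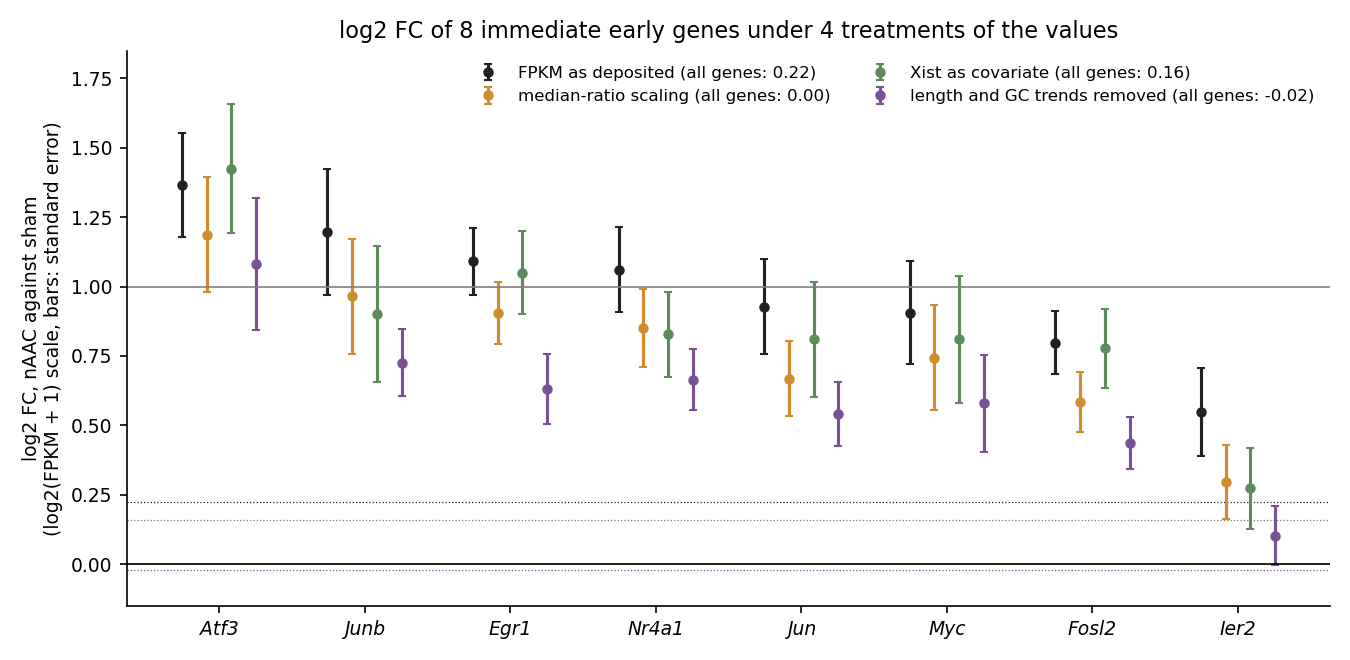
log2 FC (nAAC against sham, log2(FPKM + 1) scale) of the 8 tested genes, with standard errors, for FPKM as deposited and for 3 alternatives, where dotted lines mark the median of all genes in each. All points lie above 0, and Atf3 is the only gene above the DEG limit of 1 in each of the 4.

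Of 26 other immediate early genes listed, 19 were tested and 12 rose at an adjusted p below 0.05, 5 of them as DEGs, against 27.1% and 5.01% of all genes tested. The remaining 7 did not pass, and none fell. The median log2 FC of the 19 was 0.59. The DEGs were Jund (log2 FC 1.04, the JUN partner that is present at rest), Egr3 (1.38), Ier5 (1.51), Maff (1.62, a small MAF protein) and Gadd45g (1.15, a growth arrest gene). With median-ratio scaling, Egr3, Ier5 and Maff were DEGs. Below the limit for the test, Nr4a2 was at 0.702 ± 0.181 FPKM in nAAC LV and 0.327 ± 0.126 in sham LV, Nr4a3 at 1.01 ± 0.182 and 0.305 ± 0.102, and Plk3 at 1.22 ± 0.391 and 0.490 ± 0.152 (SD, n = 5 each). The groups of these 3 genes did not overlap (exact permutation p = 0.0079 each). They were named after their values were seen, so this is a description. The share without overlap among genes below the limit was not computed. Fosl1, which encodes FRA-1, was listed at 0 in 6 of 10 libraries.

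Among 19 partners and corepressors of these factors, 16 were tested, 9 rose and 1 fell at an adjusted p below 0.05. Atf5 (log2 FC 1.29) and Mafk (1.35), both leucine zipper factors, were the DEGs. The one that fell was Max, the partner of MYC, with a log2 FC of -0.49 (adjusted p = 0.0165), from 18.2 ± 2.23 to 12.8 ± 2.52 FPKM. Max and Nab2 were named after their values were seen. With Xist as a covariate no gene of this list fell at an adjusted p below 0.05. Nab2, a corepressor of EGR1, rose with a log2 FC of 0.60 (adjusted p = 0.0052). The value of Nab1, the other corepressor of EGR1 listed, is not given here. Among all genes tested, 27.1% rose, 5.01% were DEGs upward and 4.6% fell, so a fall of 1 in 16 was near the general share. The median of the 16 was 0.41, and with the trends of length and GC removed 4 rose, 3 fell and none was a DEG.

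Of 20 upstream kinases and factors, all tested, 5 rose and 15 did not pass, a share near the 27.1% that rose among all genes tested. Their median log2 FC was 0.16, below the 0.22 of all genes. Srf, which encodes serum response factor and drives Fos and Egr1 through CArG boxes, rose from 17.8 ± 4.51 to 36.1 ± 5.25 FPKM (SD, n = 5 each) and was a DEG at a log2 FC of 1.002 (adjusted p = 0.0008). With median-ratio scaling it was 0.73 and no longer a DEG. The others that rose were Mapk7, Map2k1, Elk3 and Mrtfa, and Mrtfa encodes a cofactor of SRF. In that scaling 5 genes of this list rose and 3 fell, and its median was -0.08, so the list as a whole had no stable direction.

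MAP kinase phosphatases and feedback inhibitors end the signal that starts these genes. Of 14 listed, 12 were tested, 5 rose with an adjusted p below 0.05, none was a DEG and none fell, with a median log2 FC of 0.37. Over all genes tested, 27.1% rose in this way, 5.01% were DEGs upward and the median was 0.22. The 3 with the smallest adjusted p were Dusp8 (log2 FC 0.90), Spry1 (0.99) and Spry4 (0.57). Of 20 textbook targets of AP-1, EGR and MYC, 17 were tested, 12 rose against the same 27.1% of all genes, none fell and the median was 0.64. The DEGs among them included Timp1 (2.20, an inhibitor of matrix proteases), Spp1 (1.91, osteopontin), Ccnd1 (1.45, cyclin D1), Odc1 (1.28, polyamine synthesis) and Cd44 (1.16, the hyaluronan receptor). Spp1 reached the limit for the test only through its nAAC values. Of the DEGs named, Timp1, Odc1, Spp1 and Ccnd1 were DEGs with median-ratio scaling.

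**Figure D5:**
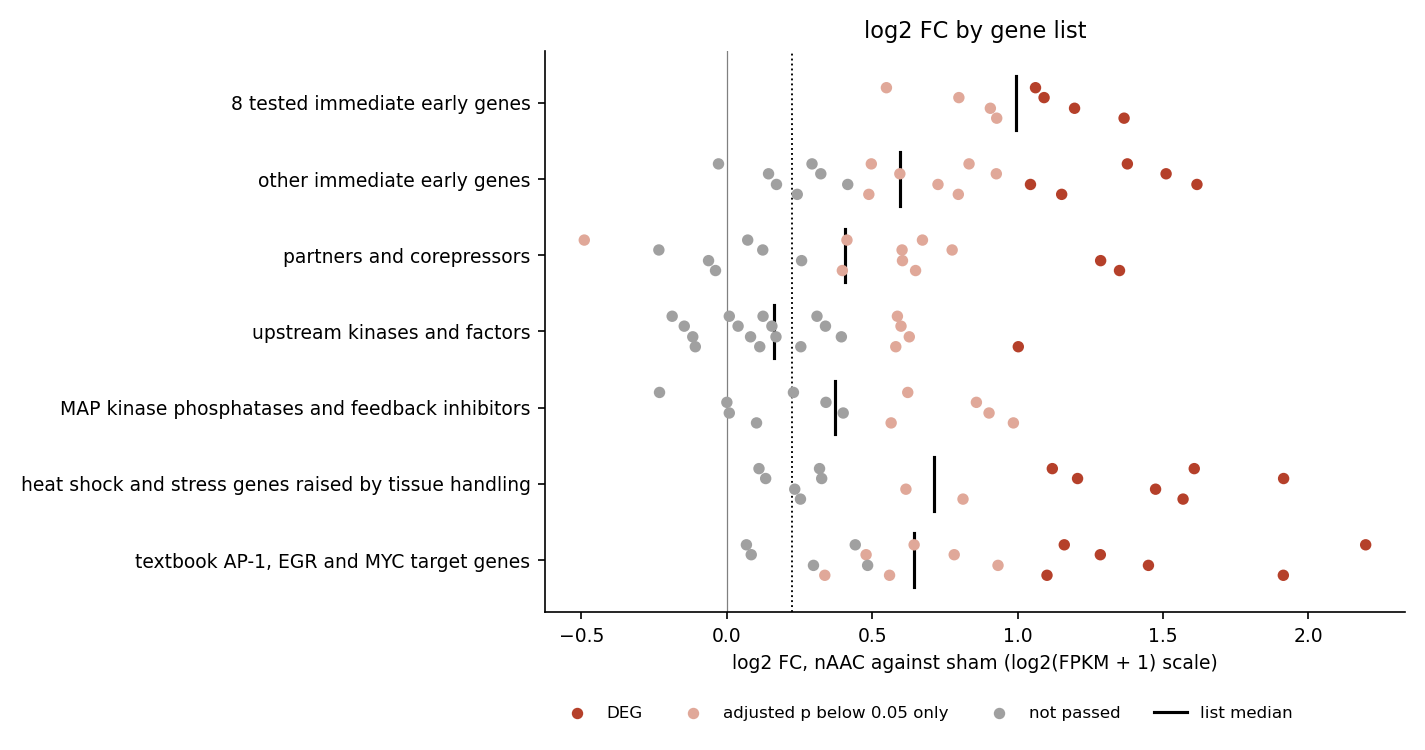
log2 FC (nAAC against sham, log2(FPKM + 1) scale) of each tested gene, with 1 row per gene list, dark red for DEGs, pale red for an adjusted p below 0.05 only and grey for genes that did not pass; black bars are list medians and the dotted line is the median of all genes (0.22). The 8 immediate early genes have a median of 0.99 and the upstream kinases and factors 0.16.

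Heat shock and stress genes, which tissue handling can also raise, were high in nAAC LV together with the immediate early genes. All 14 listed were tested, 8 rose, 6 of them as DEGs, none fell, and the median log2 FC was 0.71. Over all genes tested, 27.1% rose and 5.01% were DEGs upward. The DEGs were Hspb1 (1.91), Hspa1b (1.61), Hspa1a (1.57), Hsp90aa1 (1.47), Ppp1r15a (1.21) and Hsph1 (1.12). Hspa1a and Hspa1b reached the limit for the test only through their nAAC values. Hspa1a was at 12.1, 2.68, 3.79, 2.53 and 2.73 FPKM in nAAC mice and between 0.400 and 0.997 FPKM in sham mice. Hspa1b, a near-identical copy whose reads cannot be assigned with certainty, followed the same pattern, at 11.7 FPKM in nAAC mouse 1 and between 2.57 and 3.26 in the other nAAC mice. The mouse with the highest Hspa1a also had the highest Atf3, Fos and Egr2 and the lowest Jun, Egr1 and Fosb of its group. Without it, the log2 FC was 1.22 for Hspa1a and 1.16 for Egr1, and the 4 DEGs of the 10 genes remained and Jun joined them, at 1.03. The part of handling in these differences was not tested.

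Markers of other cell types were summed in each library. Cardiomyocyte markers were abundant in every library, at 15895 to 24814 FPKM in nAAC LV and 18887 to 33192 FPKM in sham LV, and of 10 tested, 1 rose and 3 fell. Fibroblast markers summed to 948 to 1426 FPKM in nAAC LV and 653 to 911 FPKM in sham LV, with 5 of 8 higher. Mural markers summed to 257 to 373 and 162 to 271 FPKM, with 5 of 6 higher. Leukocyte markers summed to 143 to 285 and 92.3 to 199 FPKM, with 2 of 9 tested higher, and endothelial markers to 247 to 391 and 213 to 316 FPKM, with 1 of 8 higher. The sum over the 10 immediate early genes was 56.0 to 75.6 FPKM in nAAC LV and 24.0 to 36.0 FPKM in sham LV. The nAAC mouse 4 had the highest sum of the immediate early genes and of the fibroblast, mural, leukocyte and endothelial markers. It also had the largest median-ratio scaling factor of all libraries, 1.23, so its FPKM were high over genes in general. The summed partners and corepressors and the upstream kinases and factors were highest in that mouse as well. Atrial markers summed to 3.13 to 228 FPKM in nAAC LV and 3.70 to 45.5 FPKM in sham LV. Erythroid markers summed to 3396 to 8802 and 2292 to 8661 FPKM, and none of either kind passed the test. Both sums were highest in nAAC mouse 3, which also had the highest Junb, Nr4a1 and Myc. The 3 atrial markers tested had a median log2 FC of 0.89. Among all genes tested, 27.1% rose and 4.6% fell, so the leukocyte and endothelial counts were not above the general share. With median-ratio scaling, 3 fibroblast, 3 mural, 1 leukocyte and no endothelial markers were higher, against 13.2% of genes tested. In that scaling 4 cardiomyocyte markers fell and none rose. The part of these cell types in the higher immediate early genes was not tested.

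In nAAC mice, 11889 to 12455 genes reached 1 FPKM, and in sham mice 11182 to 11721 did. The aligned total, estimated from FPKM and coverage, was 6.82 gigabases in nAAC mouse 1, the deepest library and the one with the highest Atf3 and Hspa1a, and 4.86 to 5.26 gigabases in the other 9. Mitochondrial genes took 32.8% to 39.9% of TPM in nAAC LV and 33.7% to 49.8% in sham LV, with the lowest sham share in sham mouse 4. Without sham mouse 4, the same 4 genes, Atf3, Junb, Egr1 and Nr4a1, were DEGs and 8 of 10 had an adjusted p below 0.05.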

How the data were processed

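LV RNA of 5 nAAC and 5 sham mice was extracted with Trizol and made into libraries with an NEBNext kit, and groups were taken from the titles and treatment labels. For each mouse, the authors deposited a table of genes with a mean coverage, an FPKM and a TPM value, in the layout of StringTie. The deposited coverage is the read depth per base, the deposited FPKM is scaled to the sequenced total, and TPM, also deposited, was scaled by the authors to a fixed sum. The submitters' notes name build mm10, and 99.4% of the genes shared with GENCODE M21 had the same coordinates. The aligner, counting tool and use of strand are not given in the sources used here. Read counts could not be recovered, so no count model and no counting interval was used.

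Rows sharing a gene ID, between 7 and 12 per table, were summed. Log2(FPKM + 1) was tested for 11867 genes whose mean FPKM reached 1, with limma 3.58.1 in R 4.3.3 (empirical Bayes with trend, two-sided, Benjamini-Hochberg over all genes). A fold on this scale understates changes of low genes. A gene was a DEG at an adjusted p below 0.05 together with a log2 FC above 1 in either direction. Ratios are those of group means. For single genes and shares, exact permutation tests (two-sided, 5 libraries against 5) were run. In simulated data for this comparison, 196 of 200 genes changed by 1.5 among 11867 were called with the right sign, and 2 unchanged genes were called. The changed genes were drawn from those with a mean log2(FPKM + 1) above 2, and the noise was independent between genes. That change is larger than the log2 FC of any tested immediate early gene of the 10. The simulation therefore does not tell how low genes or changes near the fold limit are called. Promoters came from the RefSeq table of GRCm38.p6. Python 3.11.15, pandas 2.3.3, scipy 1.17.1 and matplotlib 3.10.9 were used.

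The 10 genes, the lists and the tests were chosen with earlier results of these data known. The named genes were the 10 genes, every DEG of the pathway lists (or up to 3 genes with the smallest adjusted p in a list without DEGs) and the 6 genes most like the mean profile. Genes named outside this rule, such as Egr2, Max, Nab2, Mrtfa and Nr4a2, were chosen after their values were seen. One DEG of the target list is not reported here by name. The alternatives tried were TPM, scaling by median ratio or by upper quartile, Xist as a covariate, a pseudocount of 0.1, no limit on low values, a replicate block, rescaling without mitochondrial genes, removal of length and GC trends by loess (span 0.3), and leaving out each mouse.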

Additional observations from a re-analysis of the deposited data

Results flagged for a closer look

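Values of the named genes were searched for a library far from the others of its group, by Dixon's ratio of the gap to the range on the log2(FPKM + 1) scale, with a critical value of 0.71 for 5 libraries. Among 66 groups examined, 4 passed, where chance would give about 3.3. None concerned the 10 immediate early genes themselves. Hspa1a (ratio 0.77) and its near-identical copy Hspa1b (0.86) were highest in nAAC mouse 1, at 12.1 and 11.7 FPKM, and share reads, so they are not independent. Hsph1 (0.82), another heat shock gene, was lowest in the same mouse, at 6.77 FPKM, where the other 4 ranged from 9.58 to 10.3. Cd44 (0.83) was lowest in sham mouse 4, at 1.21 FPKM, where the other 4 ranged from 2.28 to 2.55.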

How the results depend on the processing

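As deposited, 701 genes were DEGs, and this number became 1075 with TPM and 1121 with a pseudocount of 0.1. Of the 10 immediate early genes, 4 were DEGs as deposited, 1 with median-ratio scaling, 1 with upper-quartile scaling and 1 with length and GC trends removed (Atf3 each time), 2 with Xist as a covariate (Atf3 and Egr1), and 7 with TPM. Leaving out sham mouse 4 under median-ratio scaling, an alternative added after the data were seen, gave 2 (Atf3 and Junb). Over the 11867 genes tested, DEGs upward numbered 595 as deposited, 371 with median-ratio scaling and 377 with upper-quartile scaling. They numbered 494 with Xist as a covariate, 979 with TPM, and 317 of 11860 genes with length and GC trends removed. Median-ratio scaling without sham mouse 4 gave 378. Leaving out each mouse in turn gave 3 to 5 DEGs of the 10, 7 or 8 with an adjusted p below 0.05, and 662 to 784 DEGs over all genes. The count was 3 without nAAC mouse 3 and without sham mouse 2, where Nr4a1 was lost. Of 160 fits of the 8 tested genes under alternatives, 155 stayed on the same side of an adjusted p of 0.05 and none changed direction. The other 5 were those of Ier2, whose log2 FC ranged from 0.10 to 0.73, with the highest adjusted p, 0.508, after removal of length and GC trends. The share of higher genes among DEGs also depended on scaling, at 595 of 701 as deposited and 371 of 577 with median-ratio scaling. The labels give no sex, and Xist was at 14.8 FPKM or above in 4 nAAC mice and at 3.70 or above in 2 sham mice. The sexes may therefore be unbalanced between the groups, and the part of sex in the differences was not tested. The cause of the changes between settings was not tested.

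Replicate numbers did not pair the mice, since the correlation of same-numbered deviations lay between -0.32 and 0.19 and no mouse correlated best with its own number. With the replicate block, 704 genes and 4 of the 10 were DEGs. Among the other named genes, Jund lost its call with Xist as a covariate (0.66, adjusted p = 0.0643) and Spry4 after removal of length and GC trends. Read counts per gene are unknown, which limits Fosb and Fos most.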
